A study of Mus musculus with 12 samples.

Results

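Lithium was compared with no lithium in 3T3-L1 cells that had both been given the fat cell induction medium MDI. 3T3-L1 is a mouse fibroblast line whose confluent cells turn into fat cells in culture. The comparison holds 6 of the 12 arrays of the series, chosen by their sample titles: 3 arrays of lithium plus MDI cells against 3 arrays of MDI cells. MDI cells received isobutylmethylxanthine, a phosphodiesterase inhibitor, with dexamethasone and insulin for 3 days, then insulin for 2 days and plain serum medium for 2 days, ending on day 7. Lithium plus MDI cells were given lithium chloride at 25 mM and then the induction medium. The labels' protocols give no schedule or end day for the lithium plus MDI cells, so a difference in time under treatment cannot be told apart from lithium. The other groups, used here only as reference, were 3 arrays of preadipocytes and 3 of preadipocytes with lithium at 25 mM and no MDI. All groups are the same unmodified line. Fat content, messenger RNA and WNT activity were not analysed here, so how far the cells of either group had become fat cells is not known from these values.

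MicroRNAs (miRNAs) are short RNAs that guide repression of messenger RNAs, mainly by pairing of bases 2 to 8, the seed, with sites in the target. WNT signalling holds preadipocytes in an undifferentiated state: WNT stabilises beta-catenin, which blocks the induction of PPARG and CEBPA, the main fat cell transcription factors. Lithium inhibits the kinase GSK3, which marks beta-catenin for destruction, and is used to imitate WNT. The series set out to profile miRNAs where WNT signalling is suppressed, by MDI, and where it is activated, by lithium. The comparison within MDI-treated cells addresses what lithium changes when the induction medium is present.

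Of 611 mouse miRNAs on the array, 157 were bright enough to test, and none differed between lithium plus MDI and MDI cells at an adjusted p of 0.05 (limma, two-sided, Benjamini-Hochberg adjustment, smallest adjusted p = 0.781). The share called was therefore 0.0% of the tested miRNAs. Without adjustment 6 miRNAs, or 3.82%, had a p under 0.05, all of them higher with lithium: miR-30c, miR-652, miR-185, miR-181b, miR-148b and miR-181a. Most tested miRNAs lay slightly higher with lithium, 114 above and 43 below 0 (72.6% above), with a median log2 difference of 0.18. No difference reached 1 in absolute log2, a doubling, and 27 exceeded 0.5. Whether a group's 3 samples were grown as separate cultures is not stated in the labels, and the p-values then speak only of sample-to-sample spread, technical spread included.

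The sequences below are the mature miRNAs on which the description turns, from RefSeq (GRCm38.p6), 5′ to 3′, with the seed in capitals. The first 3 share 1 seed and were each higher on all lithium plus MDI arrays than on any MDI array. They lie at chr6:51269829-51269850 (minus strand), chr15:103285185-103285206 (plus strand, within the span of Copz1) and chr11:96850439-96850459 (plus strand, within the span of Copz2).
miR-148a: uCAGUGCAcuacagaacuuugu
miR-148b: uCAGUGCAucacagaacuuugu
miR-152: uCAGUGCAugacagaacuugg

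The next 3 are the members of the miR-30 family matched in RefSeq, shown because miR-30c had the smallest p of all tested miRNAs. The table holds miR-30c at chr1:23291714-23291736 (plus strand) and at chr4:120769584-120769606 (minus strand, within the span of Nfyc). It places miR-30a at chr1:23272274-23272295 (plus strand) and miR-30e at chr4:120772660-120772681 (minus strand, also within Nfyc).
miR-30c: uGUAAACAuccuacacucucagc
miR-30a: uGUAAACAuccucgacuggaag
miR-30e: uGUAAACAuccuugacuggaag

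The miR-181 pair and miR-301a, which had the largest differences, follow with miR-652 and miR-10b, whose groups did not overlap. miR-181a and miR-181b lie side by side at chr1:137966468-137966673 and again within the span of Nr6a1 at chr2:38852741-38853868, both on the plus strand. miR-301a lies at chr11:87113054-87113076 (plus strand, within Ska2), miR-652 at chrX:142739060-142739080 (plus strand, within Tmem164) and miR-10b at chr2:74726074-74726096 (plus strand, within the spans of Hoxd3 and Hoxd4).
miR-181a: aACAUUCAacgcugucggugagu
miR-181b: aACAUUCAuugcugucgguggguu
miR-301a: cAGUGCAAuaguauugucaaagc
miR-652: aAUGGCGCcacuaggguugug
miR-10b: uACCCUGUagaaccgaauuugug

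The last 3 stand for the lower side: miR-1224, the only miRNA lower on every lithium plus MDI array, and miR-20a and miR-92a of the miR-17-92 cluster. miR-1224 lies at chr16:20604452-20604472 (plus strand, within Vwa5b2). miR-20a lies at chr14:115044183-115044205 and miR-92a at chr14:115044476-115044496, both on the plus strand, and miR-92a has a further copy at chrX:52741854-52741874 (minus strand).
miR-1224: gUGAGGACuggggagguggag
miR-20a: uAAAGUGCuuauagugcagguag
miR-92a: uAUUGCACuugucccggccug

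The levels below are log2 signals relative to an array's 75th percentile (taken over mouse probes detected on every one of the 12 arrays), so 0 is the signal of a bright miRNA and −4.97 is the floor at which dim values were set. Levels of different miRNAs are not comparable, since each probe has its own brightness. The arrays measure RNA of whole cultures, so a lower level per cell and fewer cells holding a miRNA cannot be told apart. On the 6 arrays 5.84% of the tested values sat at the floor, and 109 of the tested miRNAs were detected on all 6.

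The array labelled lithium plus MDI 3 stood apart from the rest of its group. Its values correlated with those of the other 2 lithium plus MDI arrays at a mean r of 0.924 over the 157 miRNAs, and with the preadipocyte arrays at 0.965. Arrays 1 and 2 of the group correlated with the MDI arrays at 0.974 and 0.966. On array 3, 37 miRNAs lay more than 1 log2 unit from the mean of arrays 1 and 2, against 6 for array 1 and 16 for array 2 measured in the same way. Lower there were miR-7a (by −3.23) and miR-92a (by −2.60), and higher were miR-99a (by 2.21), miR-146b (by 2.17) and miR-210 (by 1.68). In the reference groups, the array labelled preadipocyte 3 correlated with the lithium arrays at a mean of 0.957 and with its own group at 0.939, and the array labelled lithium 1 correlated with the MDI arrays at 0.960 and with its own group at 0.942. Whether samples were exchanged cannot be settled from the labels. All arrays were kept as labelled, and directions drawn from these 3 hold only as far as their labels do. Among the MDI arrays, array 1 had 17 such miRNAs and was the only one of the 6 on the first of the 2 slides. All 3 lithium plus MDI arrays sat in the lower row of the second slide and MDI arrays 2 and 3 in its upper row, so within that slide row and group cannot be told apart. Because of this layout and the arrays that stood apart, several of the leading results are also given without lithium plus MDI array 3 or within slide 2.

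**Figure D1:**
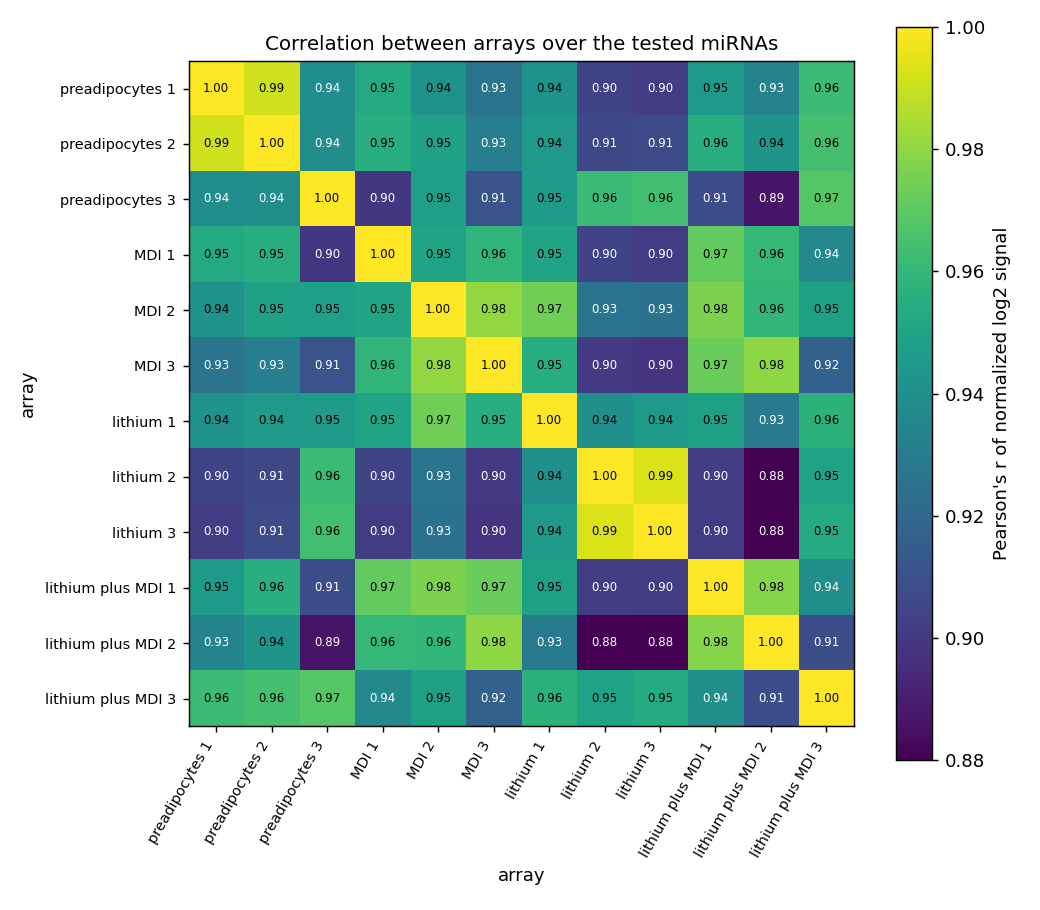
Pearson's r of normalized log2 signal over the 157 tested miRNAs for each pair of the 12 arrays, in colour and as printed values. Lithium plus MDI arrays 1 and 2 correlate with the MDI arrays at 0.96 to 0.98, and lithium plus MDI array 3 correlates with preadipocyte array 3 at 0.97 and with lithium plus MDI array 2 at 0.91.

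Markers of the labelled cell kind were present. All 7 mesenchymal miRNAs of the list were tested, with a median difference of 0.07. Markers of epithelium (7 miRNAs), muscle (7), blood (6), and liver and endothelium (3) were detected on none of the 6 arrays, and of 5 neural miRNAs only miR-128 was seen. The 5 miRNAs named for their bright probes, miR-21, miR-125b-5p, let-7f, miR-23a and miR-199a-3p, had differences from −0.11 to 0.39. miR-21 read 4.94 ± 0.11 in MDI cells and 5.01 ± 0.34 in lithium plus MDI cells (log2 mean ± SD, n = 3 each). The difference of 0.07 was smaller than either spread. Over all 157 miRNAs the 2 group means correlated at r = 0.989, a description across miRNAs, which are not replicates.

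Fat cell differentiation is helped by some miRNAs and held back by others, and both lists, taken from the literature, lay above 0. Of 13 tested miRNAs said to promote it, 12 were higher and 1 lower, with a median difference of 0.50. Of 10 said to inhibit it, 9 were higher and 1 lower, with a median of 0.36. The share above 0 over all tested miRNAs was 72.6% and their median 0.18, and no member of either list passed the adjusted test. Under quantile normalization the medians were 0.30 and 0.08, beside 0.01 over all tested miRNAs, with 8 of 12 and 7 of 10 members higher. Without lithium plus MDI array 3 they were 0.398 and 0.405, beside 0.29 over all tested miRNAs. In that setting 11 of 13 and 10 of 10 members were higher, so the order of the medians was not kept. With a block for slide row the medians were 0.22 and 0.34, beside 0.24 over all tested miRNAs. On the promoting side the values in lithium plus MDI did not overlap those in MDI for 5 members (miR-30c, miR-148a, miR-320, miR-107 and miR-103), and on the inhibiting side for none. Over all tested miRNAs 18, or 11.5%, were higher without overlap.

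miR-30c belongs to a family that promotes fat cell differentiation. In MDI cells it read −1.51, −1.11 and −1.44, and in lithium plus MDI cells −0.43, −0.62 and −0.48. Every lithium plus MDI array was above every MDI array, and the group's values lay close together, array 3 included. The difference was 0.84 (SE 0.29, 95% interval 0.21 to 1.46), a 1.79-fold ratio, with an unadjusted p of 0.0123 and an adjusted p of 0.781 in limma. Without lithium plus MDI array 3 it was 0.82, and within slide 2 it was 0.76. Preadipocytes averaged −1.19 and lithium cells without MDI −0.43, so the lithium difference without MDI was 0.77, close to that with MDI, and the interaction (the difference of the 2 lithium differences) was 0.07. Its interval of −0.81 to 0.95 also allows sizeable differences between the 2 settings.

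The other miR-30 members were also higher in the means. miR-30b read −2.21, −1.67 and −1.97 in MDI cells and −1.54, −1.54 and −1.05 with lithium, a difference of 0.57. Again the groups did not overlap, and 11.5% of all tested miRNAs were higher in this way. miR-30d and miR-30e differed by 0.49 and 0.57 with overlapping groups. miR-30a, which has the miR-30c seed, differed by 0.16. The median of the 5 members was 0.57 beside 0.18 over all tested miRNAs. It was 0.35 without lithium plus MDI array 3 and 0.30 under quantile normalization, where miR-30a turned to −0.05. With both changes together it was 0.01, with 3 of 5 members higher, beside 0.00 over all tested miRNAs.

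miR-148a, miR-148b and miR-152 have the same seed, and miR-148a is 1 of 4 miRNAs this study is known to have singled out. miR-148a, a promoter of fat cell formation that represses a Wnt ligand, read −2.55, −2.12 and −2.77 in MDI cells and −1.71, −1.96 and −1.45 in lithium plus MDI cells. The groups did not overlap, and the difference was 0.77 (SE 0.41, 95% interval −0.10 to 1.65, adjusted p = 0.781 in limma). miR-148b read −3.23, −3.68 and −3.90 and then −2.81, −2.84 and −3.04, a difference of 0.71 (SE 0.30, interval 0.06 to 1.36). miR-152 read −1.48, −1.36 and −1.62 and then −1.04, −1.35 and −0.89, a difference of 0.39. All 3 were thus higher without overlap, as were 11.5% of all tested miRNAs, and their median was 0.71. For miR-152 this rests on −1.35 against −1.36. Probes for near-identical members can bind each other's target, and their part in this was not tested. Without lithium plus MDI array 3 the differences were 0.65, 0.78 and 0.29, and within slide 2 they were 0.74, 0.90 and 0.39. Under quantile normalization the differences were 0.48, 0.51 and 0.04. Over all the processing settings tried, the lowest were 0.25, 0.19 and −0.17, so miR-152 changed sign.

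**Figure D2:**
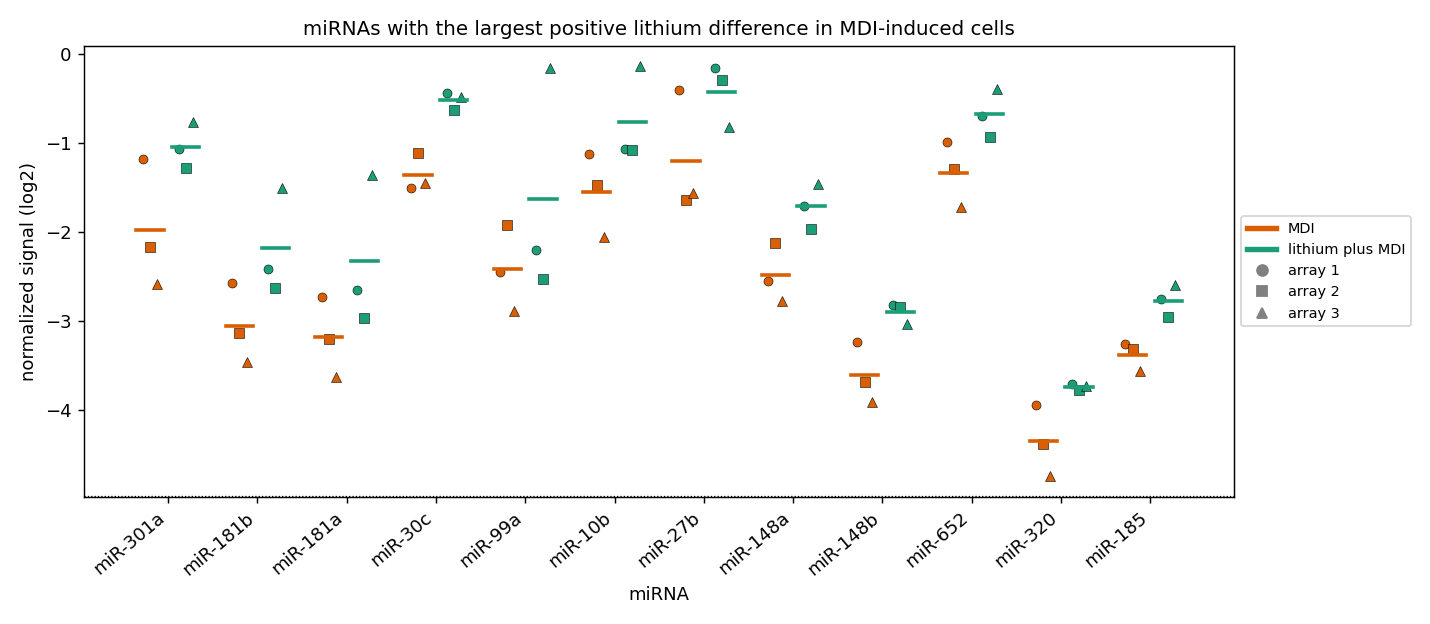
Normalized log2 signal of the 12 miRNAs with the leading positive differences, with 1 symbol per array (circle, square and triangle for arrays 1, 2 and 3) and a bar at each group mean, MDI in orange and lithium plus MDI in green. The groups do not overlap for miR-30c, miR-148a, miR-148b, miR-652, miR-320, miR-185 and miR-10b, while for miR-181a, miR-181b and miR-99a the highest point is lithium plus MDI array 3 (triangle).

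Outside these families 4 more of the leading miRNAs had groups that did not overlap. Over all tested miRNAs 11.5% were higher without overlap, and lack of overlap was itself among the rules for naming. miR-652 read −0.99, −1.29 and −1.72 in MDI cells and −0.70, −0.93 and −0.39 in lithium plus MDI cells, a difference of 0.66 (SE 0.26, interval 0.10 to 1.22). miR-185, a regulator of cholesterol synthesis genes, read −3.25, −3.31 and −3.56 and then −2.75, −2.95 and −2.59, a difference of 0.61 (SE 0.25, interval 0.08 to 1.14). Both had lithium differences of the opposite sign without MDI, −0.66 and −0.73. Their interactions were 1.32 and 1.34. miR-320, studied in insulin-resistant fat cells, was well above background on 1 of 3 MDI arrays and on all lithium plus MDI arrays, at −3.94, −4.38 and −4.74 and then −3.71, −3.77 and −3.73. miR-10b, encoded among the Hoxd genes, read −1.12, −1.47 and −2.05 and then −1.07, −1.07 and −0.13. Its difference of 0.79 was 0.48 without lithium plus MDI array 3, though the groups still did not touch. With a block for slide row it was 0.35. In preadipocytes miR-10b averaged 0.32.

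miR-181a and miR-181b share a seed and are transcribed side by side. miR-181a read −2.72, −3.20 and −3.63 in MDI cells and −2.65, −2.96 and −1.36 in lithium plus MDI cells. miR-181b read −2.56, −3.14 and −3.46 and then −2.41, −2.63 and −1.50. For both, array 3 was the high one, arrays 1 and 2 lay within or just above the MDI values, and the groups overlapped. The differences of 0.86 and 0.87 became 0.38 and 0.53 without array 3. Within slide 2 they were 1.09 and 1.12. miR-301a, which had the largest difference of all (0.94, SE 0.49), read −1.17, −2.17 and −2.58 and then −1.07, −1.28 and −0.76, so MDI array 1 lay among the lithium plus MDI values. Within slide 2, which leaves out that array, the difference was 1.34 (adjusted p = 0.152 in limma). miR-130a, which has the miR-301a seed and represses PPARG, differed by 0.28.

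Also among the largest means were miR-27b and miR-99a, both with overlap. miR-27b, which represses PPARG, read −0.40, −1.63 and −1.56 and then −0.15, −0.29 and −0.82. MDI array 1 again lay with the lithium plus MDI arrays, and the difference of 0.78 was 1.18 within slide 2. miR-99a, of a family that targets the mTOR kinase, read −2.45, −1.92 and −2.88 and then −2.20, −2.53 and −0.15. Its difference of 0.79 was 0.06 without lithium plus MDI array 3, so that array alone carried it.

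**Figure D3:**
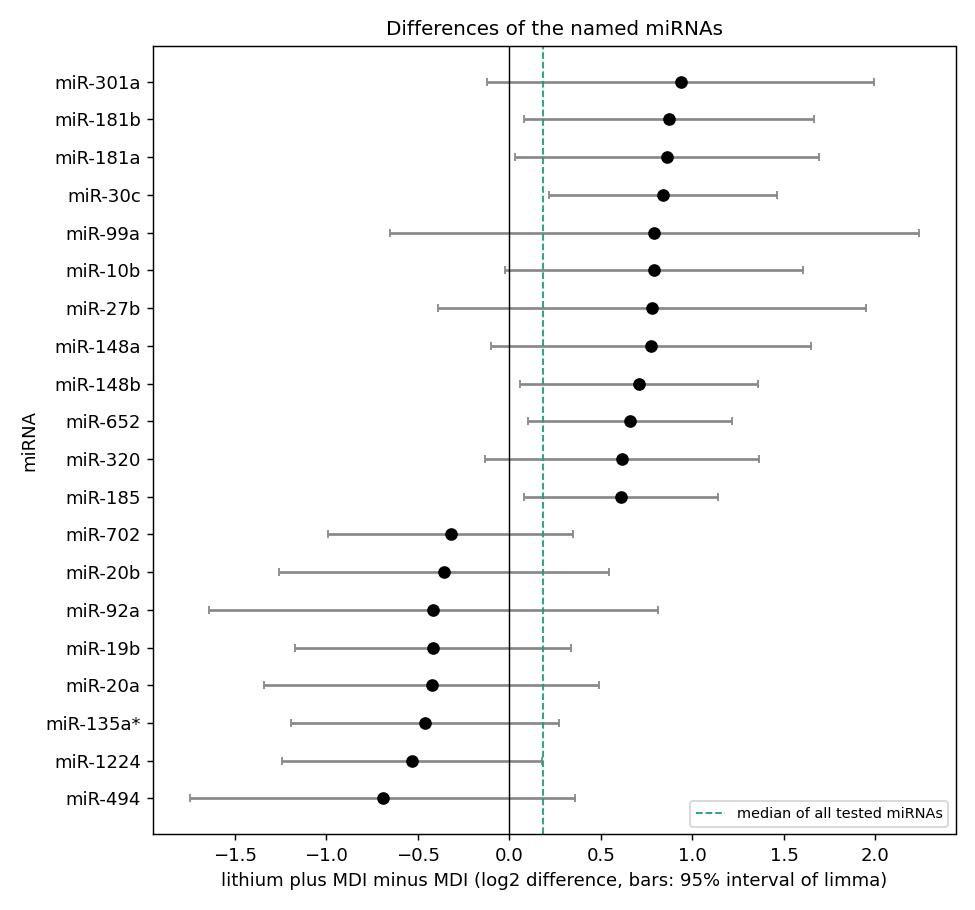
Log2 difference, lithium plus MDI minus MDI, of the miRNAs named for their size, their unadjusted p or the lack of overlap (points), with the 95% interval of limma (bars) and the median of all tested miRNAs (dashed line at 0.18). The intervals of miR-30c, miR-652, miR-185, miR-148b, miR-181a and miR-181b lie above 0, and those of all 8 miRNAs on the lower side cross 0.

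With the scaling used here 43 of the 157 miRNAs were lower with lithium, and among those detected on all 6 arrays the differences reached −0.69. Under quantile normalization the lowest was miR-494 at −1.04, beside miR-181a at 0.62 as the highest. miR-1224, a miRNA spliced from an intron, was the only one lower without overlap (0.637% of the tested miRNAs): it read 0.12, 0.93 and 0.22 in MDI cells and 0.11, −0.42 and −0.02 with lithium. Its first arrays were nearly equal, and the difference of −0.53 had an interval of −1.24 to 0.18. miR-494 had the most negative mean among miRNAs detected on all 6 arrays, −0.69, with values of −0.44, −2.52 and −0.67 and then −1.61, −1.95 and −2.14. MDI array 2 was the lowest of all 6, so the groups overlapped. miR-196a, linked to brown fat, was lower by more (−0.88), but lithium plus MDI array 3 was at the floor: it read −4.10, −2.85 and −3.38 and then −3.39, −4.61 and −4.97. The other 4 tested miRNAs of the brown fat list were higher, and the median of the 5 was 0.18, that of all tested miRNAs. Without lithium plus MDI array 3 the median of the 5 was −0.14, with 1 of 5 higher, so their direction rests on that array.

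The miR-17-92 cluster and its relatives drive proliferation and, in 3T3-L1 cells, speed clonal expansion after induction. Of 9 tested members 8 were lower and 1 higher, with a median difference of −0.29. All 5 tested miRNAs of the chr14 cluster were lower (−0.43 to −0.11), as were the 3 tested of its chrX copy, of which miR-19b and miR-92a are the same mature miRNAs counted on chr14. miR-20a read −0.92, −1.17 and −0.95 in MDI cells and −0.95, −0.63 and −2.74 in lithium plus MDI cells. miR-92a read 0.27, −0.51 and 0.00 and then 0.23, 0.51 and −2.23. In both, lithium plus MDI array 1 lay within the MDI values, array 2 above them and array 3 below them all. Without that array the median of the 9 was 0.28, with 8 of 9 members higher, so the direction of this group rests on 1 array. On that array miR-92a was also below the preadipocyte arrays, which read −0.90, −1.06 and −1.70.

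Of the other families, let-7, which restrains growth and represses Hmga2, a gene needed for clonal expansion of preadipocytes, had all 9 members higher, with a median of 0.38. Only let-7g and let-7i did so without overlap (11.5% of all tested miRNAs did), and under quantile normalization 7 of 9 were higher with a median of 0.16. The miR-23/27/24 clusters had 6 of 6 higher with a median of 0.45, and 5 of 6 under quantile normalization. miR-29, a repressor of collagen genes, had 3 of 3 higher by 0.24 to 0.31, of which miR-29a and miR-29c did not overlap, but 1 of 3 was higher under quantile normalization without lithium plus MDI array 3. miR-143, required for fat cell differentiation in culture, was higher by 0.61 and its cluster partner miR-145 by 0.47, both with overlap, and the miR-15/16 family had 5 of 6 higher with a median of 0.20. At the other end, the miR-34 family (−0.02 to 0.02) and miR-199 and miR-214 (median −0.02) lay near 0. So did the median of miR-99a, miR-100, miR-125b-5p and relatives (0.10), whose members ran from −0.19 to 0.79, miR-99a being the highest. Relative to the median over all tested miRNAs these medians were slightly low, and their sign depended on the scaling.

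The direction of small differences depended on how arrays were scaled. The median over all tested miRNAs was 0.18 as reported, −0.04 when all mouse probes entered the percentile, 0.01 after quantile normalization, −0.02 after normexp background correction and 0.31 with no scaling. The number above 0 was 114 as reported and 70, 81 of 156, 76 and 132 in these settings. A predominance of higher values is therefore not shown apart from scaling. Lithium plus MDI arrays also had more mouse spots well above background (20.4% to 23.6%) than MDI arrays (17.9% to 19.3%), whose part in the result was not tested. miR-30c, the miR-148 pair, miR-652, miR-185, miR-181a, miR-181b and miR-301a had positive differences in all of these settings. They were named for their size, unadjusted p or lack of overlap in these same data. Their sign was therefore unlikely to turn, and this is a description only.

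None of the miRNAs that the study itself or the literature ties to WNT or lithium passed the adjusted test in limma. Of the study's own 4, miR-148a is described above. miR-210, which promotes fat cell formation through WNT inhibition, read −2.91, −3.63 and −4.12 in MDI cells and −4.14, −4.02 and −2.40 with lithium. Array 3 was the highest of the 6 and arrays 1 and 2 were among the lowest, for a difference of 0.03. Without lithium plus MDI array 3 the difference was −0.53, and within slide 2 it was 0.35. miR-322 read −1.05, 1.02 and 0.45 and then −0.09, −0.38 and 0.56, a difference of −0.11 with the wide interval of −1.67 to 1.46, and it was −0.37 without that array and −0.70 within slide 2. miR-194 did not pass the filter on dim probes. A list of WNT-linked miRNAs had 7 of 10 higher with a median of 0.17, and one of miRNAs reported to respond to lithium in other cells had 6 of 7 higher with a median of 0.35. Under quantile normalization their medians were 0.07 and −0.01.

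Without MDI, lithium cells differed from preadipocytes at 10 of 157 miRNAs, or 6.37%, at an adjusted p of 0.05 (limma). There 18 miRNAs differed by more than 1 in absolute log2, against 0 with MDI, and the median absolute difference was 0.46, against 0.25 with MDI. The count of 10 was far from stable: it was 83 without the 3 arrays that stood apart, 100 with array weights, 78 when every mouse probe entered the percentile, 74 with no scaling between arrays, 19 under quantile normalization, 0 with normexp and 2 to 33 with 1 array left out. The contrast of the 2 counts is therefore a description of this setting. All preadipocyte arrays were on the first slide and all lithium arrays on the second, so in that comparison slide and lithium cannot be told apart except through the MDI group, which has arrays on both. The 2 lithium differences share no array. Groups did not overlap for 47 miRNAs (29.9%) without MDI, against 19 (12.1%) with it. Of the 10 miRNAs, 6 were higher and 4 lower with lithium in MDI cells, from −0.32 to 0.87, with a median of 0.04, and none had groups without overlap. Only 4 of the 10 met the filter on dim probes in an MDI-treated group, with a median of 0.35. The other 6 passed only through the preadipocyte or lithium arrays, so low values with MDI came with their selection. Across the 157 miRNAs the 2 lithium differences had opposite signs for 97 and the same sign for 60 (Pearson's r = −0.27, a description). Of the 157, only 131 met the filter in an MDI-treated group, and the rest passed only through the preadipocyte or lithium arrays. With the filter on the 2 MDI-treated groups, or on all 12 arrays, the count of 10 fell to 3. The contrasts above in size, overlap and sign can come in part from this selection, and how far was not tested.

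**Figure D4:**
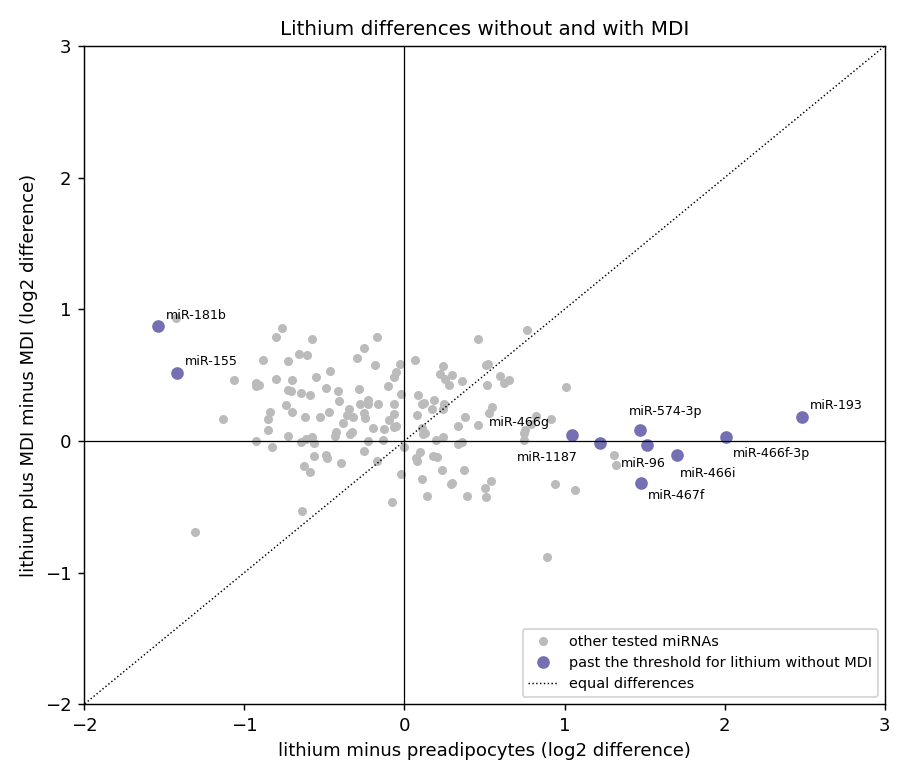
Log2 lithium difference in MDI-treated cells (vertical) against that in preadipocytes (horizontal) for the 157 tested miRNAs, with the 10 past the threshold without MDI in purple and a dotted line of equal differences. The 8 purple points on the right lie between −0.32 and 0.18 on the vertical axis, and miR-181b and miR-155 on the left lie at 0.87 and 0.52.

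Among these 10 were miR-466f-3p, miR-466i, miR-466g and miR-467f, of a repeat-rich mouse family many of whose members lie in an intron of Sfmbt2, though RefSeq places miR-466i within Cdk13 on chr13 and miR-467f within Fxr2 on chr11. miR-466f-3p read −4.57, −4.97 and −4.70 in preadipocytes and −2.66, −2.88 and −2.68 in lithium cells. In MDI cells it read −3.45, −4.76 and −4.54 and in lithium plus MDI cells −4.49, −4.55 and −3.62. The lithium arrays stood above all others, and the 2 MDI-treated groups overlapped. The array carries 39 of the family, of which 6 were seen on at least 1 of the 6 arrays and 5 were tested, of which only 1 met the filter on the 2 MDI-treated groups. That 1, miR-669f, differed by 0.19 with lithium. The others passed only through the preadipocyte or lithium arrays, so nothing is read from their differences with MDI.

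miR-193, linked with miR-365 to brown fat, had the largest lithium difference without MDI, 2.49. It read −4.09, −3.87 and −2.66 in preadipocytes and −2.43, −0.31 and −0.42 in lithium cells. In MDI cells it read −2.54, −3.53 and −3.18, and in lithium plus MDI cells −2.75, −3.70 and −2.25, with the groups mixed, and the difference of 0.18 was −0.14 without array 3 and 0.46 within slide 2. miR-96 was high in each treated group: preadipocytes read −1.75, −1.25 and −2.19, lithium cells −0.12, −0.36 and −0.17, MDI cells −0.44, −0.46 and −0.47, and lithium plus MDI cells −0.02, −0.51 and −0.96. The lithium difference of miR-96 with MDI was −0.03. miR-155, a repressor of CEBPB, went the other way: preadipocytes read −0.15, 0.30 and −1.34 and lithium cells −1.87, −2.18 and −1.40. With MDI it read −1.49, −1.53 and −1.29, and −0.72, −0.71 and −1.32 with lithium as well. Its lithium difference was −1.42 without MDI and 0.52 with it, and 0.72 without lithium plus MDI array 3.

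**Figure D5:**
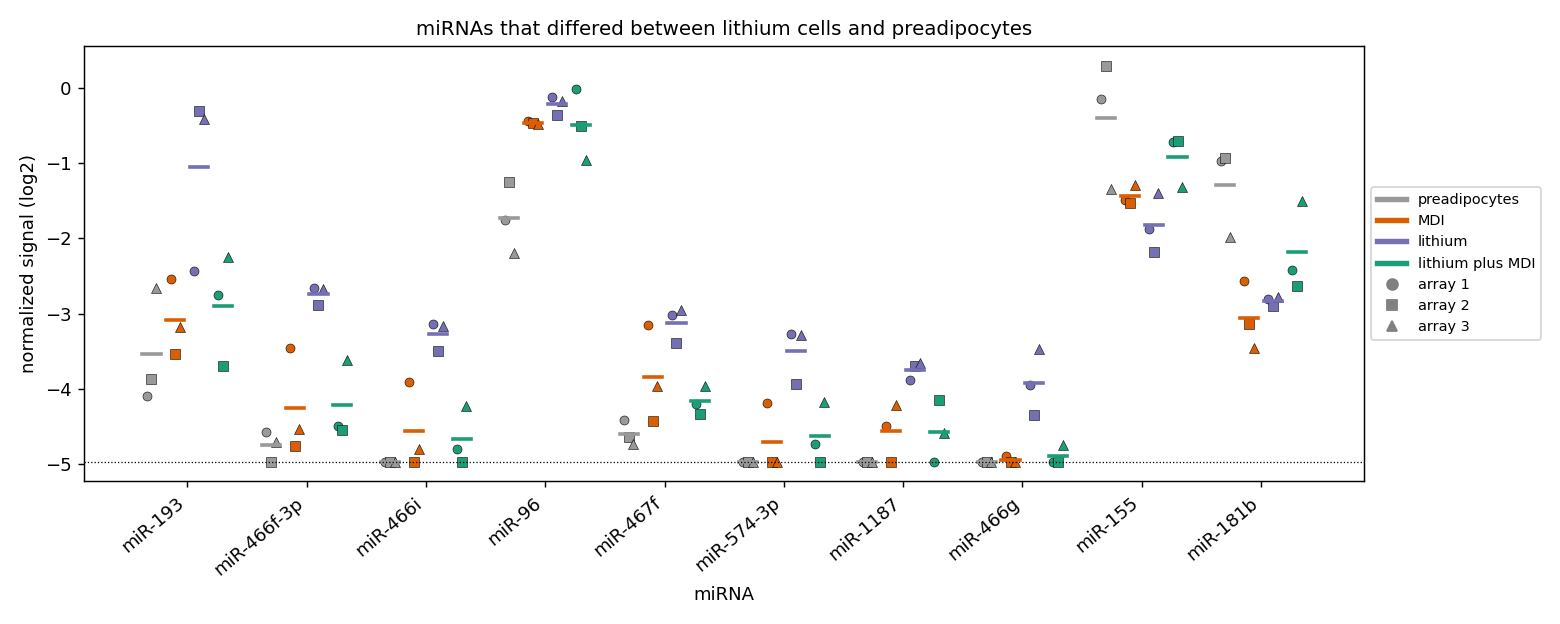
Normalized log2 signal of the 10 miRNAs past the threshold between lithium cells and preadipocytes, in all 4 groups of 3 arrays, with a bar at each group mean and a dotted line at the floor of −4.97. The lithium values of miR-466g, miR-1187, miR-466f-3p, miR-574-3p and miR-466i lie above all values of the other 3 groups. These miRNAs were chosen on lithium against preadipocytes and met the filter on dim probes only through the preadipocyte or lithium arrays. Low values with MDI came with that selection. The MDI and lithium plus MDI values overlap for all 10.

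The interaction, which tests whether lithium acted differently with and without MDI, had no miRNA past the adjusted threshold (0.0% of 157, smallest adjusted p = 0.0612 in limma). Without adjustment 35 miRNAs, or 22.3%, had a p under 0.05, 24 of them more positive with MDI and 11 more negative. The interaction was −1.98 for miR-466f-3p, −1.81 for miR-466i, −1.79 for miR-467f, 2.41 for miR-181b and 1.94 for miR-155. It uses the same lithium and preadipocyte arrays that chose these miRNAs, so their values here are a description. A block for slide left 4 past the threshold, all more negative with MDI: miR-466f-3p, miR-466i, miR-467f and miR-1196. That block rests on MDI array 1 alone to tie the slides together. Without lithium plus MDI array 3, 2 passed (miR-466f-3p and miR-466i), and without preadipocyte array 3, 26. miR-466f-3p, miR-466i and miR-467f met the filter on dim probes only through the preadipocyte or lithium arrays. Low values with MDI came with that selection, so nothing is read from their passing. The brightest probe of miR-1196 was detected on 6 arrays of the series. miR-1196 differed by 0.0 between lithium plus MDI arrays 1 and 2, as values set to the floor do. On MDI array 1 it lay 1.56 above the mean of MDI arrays 2 and 3. Its low values with MDI can have come with the same selection, so nothing is read from the passing of miR-1196 either.

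MDI and preadipocytes differed at 5 miRNAs, or 3.18% of 157: miR-10b, miR-181a, miR-181b, miR-31* and miR-96. That comparison and the lithium comparison share the MDI arrays, so their values are only set side by side. From preadipocytes to MDI cells miR-10b changed by −1.87, miR-181a by −1.65 and miR-181b by −1.76, and with lithium added they stood 0.79, 0.86 and 0.87 above MDI cells. miR-31* and miR-96 changed by 1.40 and 1.27 with MDI and stood 0.08 above and −0.03 from the MDI level with lithium. Lithium plus MDI array 3 gave the highest value of its group for miR-10b, miR-181a and miR-181b and the lowest for miR-31* and miR-96, on the preadipocyte side of its group in each case.

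Members that share a seed or a locus were also described together. RefSeq sequences were matched for 133 of the 157 tested miRNAs, and 62 of them fell into 22 seeds held by more than 1 miRNA. The seed of miR-148a, miR-148b and miR-152 had the highest median of the 8 seeds with 3 or more members, 0.71. It was followed by that of miR-30a, miR-30c and miR-30e with 0.57 and that of let-7 with 0.38. The lowest was that of miR-20a, miR-20b, miR-93 and miR-106b with −0.24, but without lithium plus MDI array 3 these read 0.22, 0.28, 0.44 and 0.09. By position, 73 miRNAs formed 32 clusters with gaps of at most 10000 bases on 1 strand, both arms of a hairpin included. In 22 clusters all tested members were higher, in 3 all were lower, and 7 were mixed. Over all tested miRNAs 72.6% lay above 0, a share that depended on the scaling. The cluster counts were not repeated under other scalings. The clusters that were all lower were the chr14 and chrX copies of miR-17-92 and the miR-877 hairpin at chr17:35960731-35960814. Without lithium plus MDI array 3 only miR-19b (−0.05) and miR-877* (−0.12) of their members were below 0. Members of a seed can share probe binding and members of a cluster share a transcript, so these are not independent. miRNAs of over 60% GC had a median difference of 0.03 (17 miRNAs), against 0.20 for the other 116.

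The precision bounds what the comparison can show. The median standard error of a difference was 0.34 and the median 95% interval reached 0.72 to either side. For 76 of the 157 miRNAs (48.4%) the interval lay wholly within a doubling or halving, and for 81 it reached beyond. A permutation test of 3 against 3 arrays cannot give an exact two-sided p below 0.1, so none is given for single miRNAs.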

How the data were processed

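Agilent single-colour arrays of 0.5 ug of Cy3-labelled RNA were read from scanner files of Feature Extraction (10.5.1.1 per the file headers, 9.5.3 per the submitters' processing notes). The deposited linear intensity is background-subtracted, per the file headers. The deposited value table, on a log2 scale per its values, served as an alternative; its medians run from 0.00175 to 0.0958, and how its values were centred and scaled is not given in the sources used here.

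Outlier spots were removed and the 5 to 20 spots of a probe averaged. Signals were scaled to the 75th percentile of the array over the 181 mouse probes detected (over 0.5 of spots well above background) on every array. Values below the 5th percentile of signals well above background were set to it, log2 was taken, and a miRNA was read from its brightest probe. Fitted were 157 of 611 miRNAs, those detected on all 3 arrays of at least 1 of the 4 groups. The 75th percentile signal ran from 264 to 477 on the 6 arrays of the comparison, and no spot was saturated; the number of arrays limits the precision. limma 3.58.1 (R 4.3.3) fitted 4 group means to the 12 arrays, with Benjamini-Hochberg adjustment over 157 and a threshold of 0.05. The fit was checked on simulated data with independent noise and changes larger than any difference seen here. That check does not show what the fit would miss at the sizes seen.

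Named are miRNAs past the threshold or with an unadjusted p under 0.05, the 8 largest differences in each direction among miRNAs detected on all 6 arrays, those without overlap (the 6 largest by name), list examples, the 5 brightest and the study's own 4. The members and lists were chosen with earlier results of these data known. miR-196a, miR-7a, miR-146b, the other members of lists, seeds and clusters, and the clusters themselves were named after their values were seen. Array names were matched to RefSeq names by hand for those of older nomenclature, 26 of 133 by exact name. Alternatives covered scaling, background, floor, filter, probe choice, slide, row, replicate number, array weights and each array left out.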

Additional observations from a re-analysis of the deposited data

Results flagged for a closer look

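Probes for viral miRNAs, which no comparison uses, gave signals well above background and above every preadipocyte array on some of the 6 arrays. The intensities, background-subtracted and not scaled between arrays, are single values with no replicate. On lithium plus MDI array 2 the 2 probes of mcmv-miR-M87-1 read 19.1 and 41.8. The 2 probes of mcmv-miR-m88-1 read 69.9 and 60.9 on that array, and 27.6 and 22.2 on MDI array 3. A probe of mghv-miR-M1-2 read 26.3 on MDI array 1, where the highest preadipocyte array read 25.6. That probe was detected on all 12 arrays, and the other 3 probes of the same miRNA read higher on preadipocyte array 3 than on MDI array 1. The mcmv probes named here were detected on no other array.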

How the results depend on the processing

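The count of 0 between lithium plus MDI and MDI held in 34 of 35 alternatives (limma), with 0 to 33 miRNAs at an unadjusted p under 0.05 among those 34. Array weights gave 22, all higher, with low weights for MDI array 1 (0.325) and lithium plus MDI array 3 (0.185), though limma's weight estimate stopped before its tolerance was met. The smallest adjusted p was 0.543 without lithium plus MDI array 3, 0.152 on slide 2 alone, and 0.0755 without the 3 arrays that stood apart (lithium plus MDI 3, preadipocyte 3 and lithium 1). Slide 2 without lithium plus MDI array 3, added after the data were seen, gave 0.0588.

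The median difference of 0.18 became −0.0387 when the percentile was taken over all probes, 0.00842 with quantile normalization (0.0234 on slide 2 and 0 without lithium plus MDI array 3) and −0.0187 with normexp. The interaction's 0 became 20 (percentile over all probes), 61 (no scaling), 7 (floor at the 25th percentile), 7 (mean of probes), 5 (the authors' deposited table), 82 (array weights), 4 (slide block), 4 (random slide block), 3 (row block), 69 (without the 3 arrays) and 9 (quantile without lithium plus MDI array 3). Leaving out 1 array gave 0 to 26. The 10 of lithium without MDI became 78, 74 and 21 with the percentile over all probes, no scaling and the deposited table. They became 19 (quantile), 0 (normexp, which called none), 3 (filter on the 2 MDI-treated groups), 3 (filter on all 12 arrays), 100 (array weights), 5 (slide block), 83 (without the 3 arrays) and 24 (quantile without lithium plus MDI array 3), and 2 to 33 with 1 array left out. The causes were not tested.

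Single miRNAs turned as follows. With array weights miR-20a was 0.10, miR-20b 0.13, miR-702 0.0131 and miR-92a 0.37. Without lithium plus MDI array 3, and without the 3 arrays, miR-20a was 0.22, miR-20b 0.28 and miR-92a 0.45. Over all arrays left out singly these 3 ran from −0.83, −0.79 and −0.92 to those values. On slide 2 without that array miR-19b was 0.20, miR-20a 0.27, miR-20b 0.31, miR-702 0.12 and miR-92a 0.62. With quantile normalization without that array miR-92a was 0.31 and miR-99a −0.29.

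Replicate numbers showed no pairing of the samples: deviations of same-numbered MDI and lithium plus MDI arrays correlated at −0.01, −0.37 and −0.48. No MDI array matched the lithium plus MDI array of its own number best. With 3 arrays per group, of which some stood apart, these deviations cannot exclude a pairing. With the replicate block 0 miRNAs passed (7 unadjusted), and the interaction had 4. Dim miRNAs limit the rest: 406 of 611 were detected on no array.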
